A study of Mus musculus with 13 samples.

Results

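CTCF sites with cohesin in every wild-type list were taken from ChIP-seq peak lists of mouse limbs at E12.5. A site was a merged autosomal interval of the wild-type whole-limb CTCF list that overlapped by at least 1 bp a peak in each of 5 other wild-type lists: CTCF in distal forelimb, CTCF in proximal forelimb, RAD21 in distal forelimb, SMC1 in distal forelimb, and RAD21 in whole limbs. The sites were thus chosen by measured peak calls in the 6 wild-type lists, and what those lists show of them is description. The rule chose 13679 of 42202 intervals (32.4%). The remaining 28523 intervals are called other CTCF sites below, and 14006 of those had CTCF in all 3 wild-type CTCF lists and no peak in any of the 3 cohesin lists.

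The deletion libraries came from homozygous embryos of 4 HoxD alleles on B6CBAF1, obtained by crossing heterozygous mice. The alleles are delHoxd(8-13)d11lac, delHoxd(8-13)rXII, delHoxd(1-13)d9lac and delHoxd(attP-rel5)d9lac, written del(8-13)d11lac and so on below. CTCF was profiled in all 4 alleles and RAD21 in del(8-13)rXII. Tissue was whole forelimbs and hindlimbs, except for CTCF in del(8-13)rXII, which was measured in forelimbs alone by ChIPmentation, a tagmentation-based protocol. RAD21 of that allele was sequenced in more than 1 run. The wild-type whole-limb lists were also from B6CBAF1, and the distal and proximal forelimb lists from wild-type CD1 embryos. Tissue was fixed for 10 minutes for CTCF, 10 or 25 for RAD21 and 25 for SMC1. Each group had 1 library, so no value has a replicate check, no p-value is given, and a difference between genotypes cannot be told apart from a difference between libraries. Ranges after shares are Wilson intervals at the 95% level, for counting error alone. The lists held 15549 to 70418 autosomal peaks, and the read depth behind them is unknown. The 2 H3K27ac libraries were not analysed here.

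The zinc fingers of CTCF recognise a long, non-palindromic DNA motif, so each site has a direction. Cohesin is the ring-shaped complex that contains SMC1 and RAD21. It is known to extrude DNA loops and to halt at CTCF, preferably where the motif points towards the loop, and the pairs of motifs that face each other at loop ends are called convergent. At HoxD, CTCF sites lie between the regulatory landscapes on either side of the gene cluster, which act on different Hoxd genes in the developing limb.

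The sequences below are from the RefSeq genome of build GRCm38 (mm10). They are printed 5′ to 3′ on the motif's own strand, with the 19 bp that best matched the CTCF matrix in capitals. The matrix was built from the summits themselves, and the highest-weighted letter at each of its positions gives TGGCCACCAGGGGGCGCCA. The first set shows the 4 sites between Evx2 and Hoxd1 and the next site on either side, in chromosome order, because the results on orientation and on the deletions turn on them.
Lnpk side, chr2:74300434-74300474, plus strand: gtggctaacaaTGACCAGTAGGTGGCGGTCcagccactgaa
Evx2 first, chr2:74661986-74662026, minus strand: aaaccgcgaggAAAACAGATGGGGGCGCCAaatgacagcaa
Evx2 second, towards Hoxd13, chr2:74663732-74663772, minus strand: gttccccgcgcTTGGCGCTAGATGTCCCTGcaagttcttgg
Hoxd9 to Hoxd8, chr2:74702381-74702421, plus strand: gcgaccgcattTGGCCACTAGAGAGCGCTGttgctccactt
Hoxd4 to Hoxd3, chr2:74715907-74715947, plus strand: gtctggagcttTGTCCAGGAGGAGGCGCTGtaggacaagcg
Mtx2 side, chr2:74964524-74964564, minus strand: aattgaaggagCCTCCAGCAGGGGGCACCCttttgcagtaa
The second site beside Evx2 had a best match of 6.26 bits, under the threshold of 6.60 bits that 5% of control windows passed, and is counted as having no motif. The other 5 scored between 9.49 and 21.5 bits. The label Hoxd4 to Hoxd3 names the 2 genes whose annotated bodies both held that site, in a non-coding exon. It lay 6036 bp before the nearest protein-coding start of Hoxd4, and not between the 2 genes.

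The next set shows the pairs of sites that flank Shh and Epha4, which were chosen after their values were seen, as examples of facing motifs far apart.
Shh left, chr5:28451357-28451397, plus strand: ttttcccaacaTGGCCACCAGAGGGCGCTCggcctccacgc
Shh right, in the direction of Lmbr1, chr5:29293382-29293422, minus strand: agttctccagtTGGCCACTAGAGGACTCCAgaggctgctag
Epha4 left, nearest to Slc4a3, chr1:75925900-75925940, plus strand: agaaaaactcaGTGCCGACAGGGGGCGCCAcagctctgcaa
Epha4 right, chr1:77516431-77516471, minus strand: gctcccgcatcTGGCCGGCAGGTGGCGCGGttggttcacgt

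The last set comes from the 10 sites that stood highest in every wild-type list. It gives 3 of the 4 that had a motif; no sequence is printed for the 6 without one.
Hif1an, chr19:44582866-44582906, plus strand: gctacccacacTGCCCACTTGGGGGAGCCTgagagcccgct
Crybb3, chr5:113099696-113099736, plus strand: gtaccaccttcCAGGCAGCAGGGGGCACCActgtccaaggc
Tnfrsf23, chr7:143706835-143706875, plus strand: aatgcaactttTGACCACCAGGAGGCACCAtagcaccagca

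The sites with cohesin in every list were stronger CTCF sites, and the rule itself favours this. Their median whole-limb CTCF −log10 q, the significance the peak caller gave each peak, was 46.9, against 9.86 at other CTCF sites. The whole-limb CTCF list was divided by −log10 q into 10 strength classes of equal size, from class 1 (weakest) to class 10 (strongest). Sites with cohesin made up 1.49% of class 1 and 79.6% of class 10. The distal forelimb RAD21 list was the step that removed most intervals, with 15049 left after it, of 38332 before it. Just inside the rule, the smallest overlap with a required peak was 14 bp, and 7 sites had one under 50 bp. Just outside it, 5121 intervals lacked a peak in exactly 1 required list, which was distal forelimb RAD21 for 3838 of them, SMC1 for 1128 and whole-limb RAD21 for 143. Those 5121 had a median CTCF −log10 q of 25.7. In the deletion RAD21 list, which the rule did not use, 76.8% of the peaks lay at these sites. Among the lists that the rule used, the share was 85.1% for distal forelimb RAD21, 60.4% for SMC1 and 42.05% for whole-limb RAD21. The deletion list held 15549 autosomal peaks and the wild-type whole-limb RAD21 list 32465, and the part of list length in these shares was not tested.

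The CTCF motif was found within 50 bp of the summit at 12787 sites with cohesin (93.5%, interval 93.1 to 93.9) and at 20797 other CTCF sites (72.9%, 72.4 to 73.4). The difference varied with strength. In class 2 the share was 50.5% (40.5 to 60.6) at sites with cohesin and 58.9% (57.4 to 60.4) at other CTCF sites, and in class 3 it was 65.8% (59.0 to 72.1) and 73.3% (71.9 to 74.6). In class 5 both shares were 85.3%, and in class 10 they were 96.5% and 92.7%. The intervals of the 2 kinds of site overlapped in classes 2 and 3. In class 1 they overlapped too, with 41.3% (29.96 to 53.6) at sites with cohesin and 31.8% (30.4 to 33.25) at other CTCF sites. The order of the shares was not the same in all classes. Of the 2000 summits that built the matrix, 1587 were sites with cohesin. Motifs lay on the plus strand at 50.0% of the sites with a motif, and 2706 sites held 2 or more matches.

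Motifs with cohesin lay less often in repeat-masked sequence, the part of the genome derived from mobile elements and simple repeats. The share was 7.41% (6.97 to 7.88) at sites with cohesin, 30.3% (29.7 to 30.95) at other CTCF sites, and 40.6% (39.7 to 41.6) at sites with CTCF in all 3 lists and no cohesin peak. Within class 5 it was 9.35% with cohesin and 32.7% at other sites. Within class 7 it was 8.28% and 19.8%. In class 10 the shares were 5.95% and 5.26%.

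For the 892 sites without a motif, the median CTCF −log10 q was 25.3, against 48.2 at the sites with one, and 230 of them (25.8%) were mostly masked within 100 bp of the summit, against 3.10% of sites with a motif.

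Sites without a motif also led the ranking of all sites by their lowest percentile over the 6 wild-type lists. Of the first 10, 6 had no motif, and the window at each of these 6 summits was fully repeat-masked. How reads were placed in repeats is not given in the sources used here, and its part in the values of these sites was not tested.

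The 4 sites of the first 10 that had a motif lay nearest to Hif1an, Pde6a, Crybb3 and Tnfrsf23. The Hif1an site, 20001 bp from the start of that gene for an inhibitor of the hypoxia factor HIF1, is an example. In deletion limbs it reached 347, 48.0, 176 and 214 for CTCF in the 4 alleles as ordered above, and 88.6 for RAD21 in del(8-13)rXII. In wild type it had a −log10 q of 200.4 for CTCF and 200.6 for RAD21 in whole limbs. Here the RAD21 value in del(8-13)rXII was below that in wild type, but the lists differ in scale, and both placed the site above the 99th percentile of their own peaks.

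Sites with cohesin were more often intergenic and less often at promoters. Of the 13679, 6611 (48.3%, 47.5 to 49.2) were intergenic, 5919 (43.3%) lay in introns, 486 in non-coding exons, 410 in UTRs and 253 (1.85%) in coding exons. At other CTCF sites 41.7% were intergenic, 47.4% intronic and 3.26% in coding exons. A protein-coding transcription start site (TSS) lay within 1 kb of 1008 sites with cohesin (7.37%, 6.94 to 7.82), against 11.7% (11.3 to 12.1) of other CTCF sites. The gap was wider at strong sites. In class 10 the shares were 12.0% at sites with cohesin and 38.1% at other CTCF sites, and in class 5 they were 5.81% and 10.5%.

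At promoters, the summit lay before the TSS at 702 of the 1008 sites with cohesin (69.6%, 66.7 to 72.4) and at 56.9% (55.2 to 58.6) of 3331 other promoter sites. The motif pointed along the gene's strand at 58.7% (55.5 to 61.8) and 56.3% (54.2 to 58.3), a difference within the intervals. The strongest 10 promoter sites with cohesin all had their summit before the TSS, by 16 to 226 bp. They belonged to Hjurp (a chaperone for the centromeric histone), Erlin2, H2-DMa (which helps load class II MHC molecules), Fam241b, Adprhl2, Acbd4, Vps18 (a subunit of the endosomal tethering complexes), Ccbe1 (needed for lymphatic vessel growth), Rnf14 and Ndufc1 (a subunit of respiratory complex I). None was without CTCF in a deletion list, but all were in class 10, where 99.97 to 100% of sites with cohesin had it in each list. The Ccbe1 site had no RAD21 peak in del(8-13)rXII.

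At promoters RAD21 was weaker and CTCF stronger than elsewhere. Promoter sites had a median wild-type whole-limb RAD21 −log10 q of 41.7, against 53.1 at sites further from a TSS, while for CTCF the order was the other way, with 58.8 and 46.4. In del(8-13)rXII limbs, RAD21 was called at 79.8% (77.2 to 82.1) of promoter sites and 88.0% (87.4 to 88.6) of the others. CTCF in that allele was called at 96.1% and 98.0%.

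Sites with cohesin were spread over all 19 autosomes at 5.55 per Mb, against 17.1 per Mb for all whole-limb CTCF sites. Across the autosomes their density went with that of protein-coding genes (Pearson r = 0.83 over 19 chromosomes, a description). They made up 26.4% to 36.4% of the whole-limb CTCF sites of each autosome. The correlation was not computed for all whole-limb CTCF sites, so it is not shown to be particular to those with cohesin. Neighbouring sites with cohesin lay a median of 81982 bp apart, with quartiles of 29135 and 191534 bp. The median for other CTCF sites was 39289 bp, and for the 14006 sites with CTCF and no cohesin, which are about as many as those with cohesin, it was 68358 bp. Of the neighbouring pairs, 4619 of 13660 (33.8%) had no other whole-limb CTCF site between them.

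**Figure D1:**
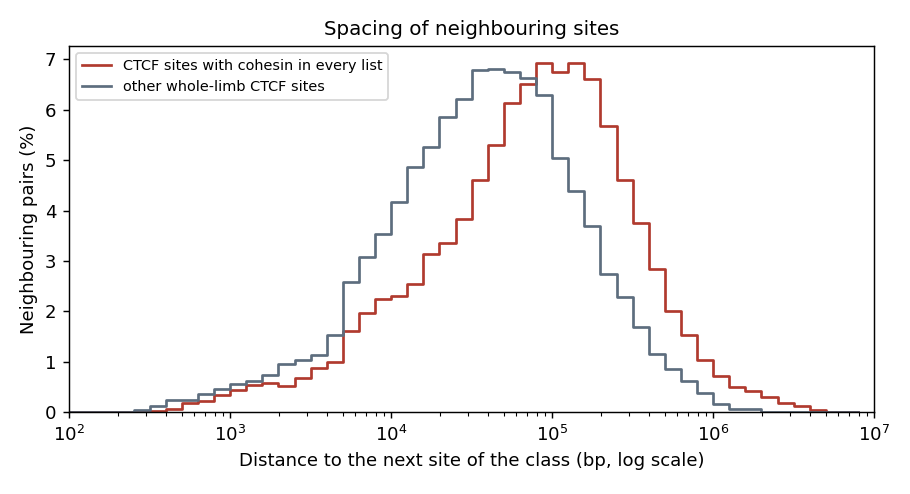
Distances between the summits of neighbouring sites of the same kind on a chromosome (log scale), as the share of neighbouring pairs in each bin; the red line is CTCF sites with cohesin in every list and the grey line other whole-limb CTCF sites. The red line lies to the right of the grey one, with medians of 81982 and 39289 bp.

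The widest gap without such a site was 5.56 Mb on chromosome 1, around Cntnap5a, a contactin-associated protein gene. It was followed by 5.03 Mb on chromosome 12 with Lrfn5 and Fscb, and by 4.78 Mb on chromosome 13 with Edil3, Hapln1, Rasa1, Cox7c and Ccnh. The next, of 4.73 and 4.20 Mb on chromosome 7, held 34 and 65 vomeronasal receptor genes among 46 and 108 protein-coding genes. These 5 gaps were not empty of CTCF, since they held 8 to 14 other whole-limb CTCF sites each. At the other extreme, 18 sites with cohesin lay in 500 kb at chr8:70383488-70883487 among 28 genes that include Jund (an AP-1 subunit), Gdf15 and Pik3r2. The next densest windows held 16 sites around Eng and Cdk9 on chromosome 2, 16 around Kdm2b and Setd1b on chromosome 5, and 15 each around Tbx21 and Kpnb1 on chromosome 11 and in the MHC with Ehmt2 and Bag6 on chromosome 17. Of 4930 fixed windows of 500 kb, 1169 (23.7%) held none.

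RAD21 and CTCF did not peak at the same base. Along the motif strand, the RAD21 summit lay a median of 19 bp beyond the motif centre in del(8-13)rXII limbs (11172 sites), 21 bp in wild-type limbs and 20 bp in wild-type distal forelimb (12787 sites each). It fell on that side at 85.4% (84.7 to 86.0), 92.5% (92.0 to 92.9) and 86.3% (85.7 to 86.9) of sites. CTCF summits had medians of 2 to 8 bp in the 7 CTCF lists. SMC1 summits had a median of 4 bp, with 58.2% (57.3 to 59.0) on that side. The 3 RAD21 lists therefore placed the summit alike, and the SMC1 list did not share the shift.

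The same shift was seen within sites. In whole limbs the RAD21 summit lay a median of 13 bp further along the motif than the CTCF summit, and further at 10215 of 12787 sites (79.9%). In distal forelimb it lay 12 bp further than CTCF and 15 bp further than SMC1, while SMC1 lay at −4 bp relative to CTCF. The shift was the same for motifs on both strands, with medians of 20 bp (plus) and 21 bp (minus) for RAD21 in wild-type limbs. It was not limited to the sites chosen: at other CTCF sites with a RAD21 peak the medians were 19, 18 and 20 bp in the same 3 lists. The rule used overlap alone and neither the summit nor the strand. Fixation time differed between the proteins and its part in this difference was not tested.

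**Figure D2:**
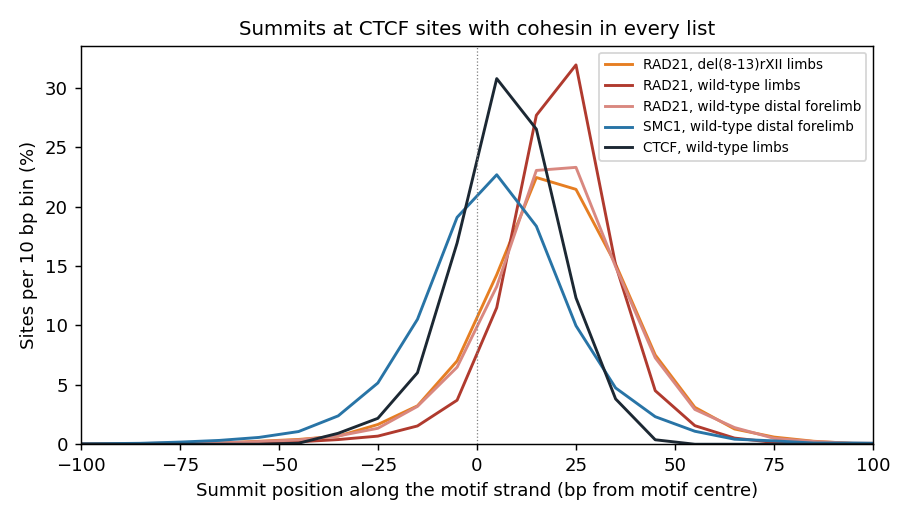
Position of the peak summit along the motif strand (bp from the motif centre, positive towards its 3′ end) at CTCF sites with cohesin in every list, as the share of sites per 10 bp bin, 1 line per list. The 3 RAD21 lines peak 10 to 30 bp beyond the centre, with medians of 19 to 21 bp, and the SMC1 and CTCF lines near it, with medians of 4 and 7 bp.

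The direction of the motifs depended on distance at sites with cohesin. Among neighbours under 10 kb apart with a motif at both, 50 of 1358 pairs (3.68%, 2.80 to 4.82) were convergent, 475 (35.0%, 32.5 to 37.6) were divergent, with motifs pointing away from each other, and 61.3% were tandem. At 10 to 50 kb 14.7% (13.5 to 16.0) were convergent and 38.4% divergent. At 50 to 200 kb the shares were 31.6% and 26.0%. Over 200 kb, 1160 of 2694 pairs (43.1%, 41.2 to 44.9) were convergent and 397 (14.7%, 13.5 to 16.1) divergent. Convergent pairs had a median distance of 143700 bp, tandem pairs 68750 bp and divergent pairs 50360 bp.

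Other CTCF sites showed a narrower range. They include sites with cohesin in some lists, such as the 5121 that lacked exactly 1 required list. Among neighbours with CTCF in all 3 lists and no cohesin peak, 22.5% were convergent under 10 kb and 25.9% (23.7 to 28.2) over 200 kb, and 24.7% and 25.2% were divergent. All other CTCF sites had 21.3% convergent pairs under 10 kb and 28.3% (25.6 to 31.04) over 200 kb. Strength differs between the 2 kinds of site, so other CTCF sites in classes 6 to 10 were set apart: they had 18.95% and 26.0% at these distances. These values set cohesin in every list beside cohesin in fewer lists or none. Within the sites with cohesin, those of classes 1 to 5 alone had 1 convergent pair of 20 under 10 kb and 28.9% (25.9 to 32.2) of 795 pairs over 200 kb whose median distances were 1189000 to 1294000 bp by orientation.

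**Figure D3:**
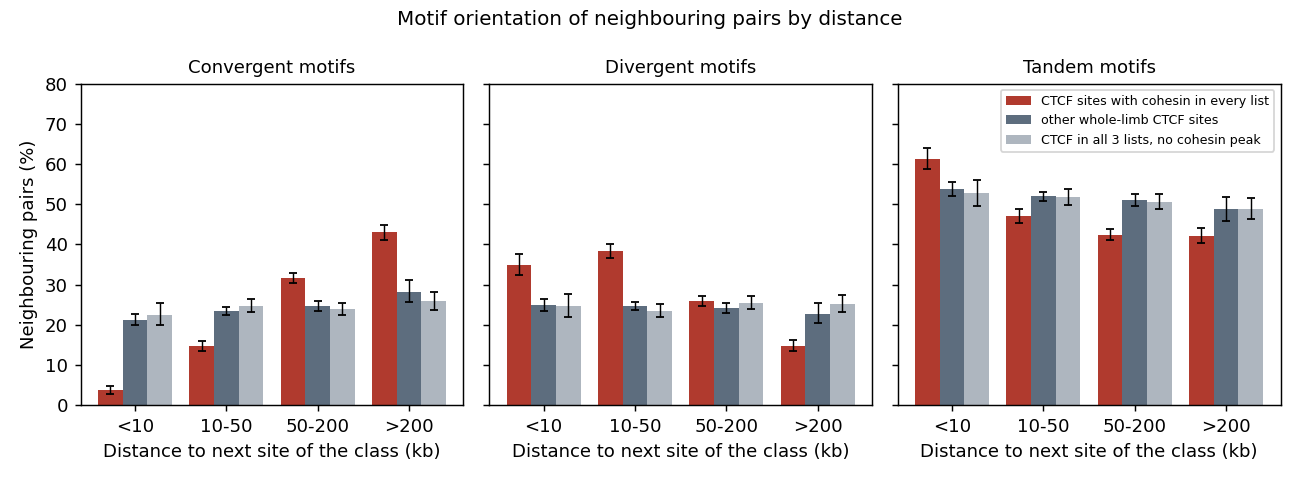
Share of neighbouring pairs with convergent, divergent and tandem motifs by the distance between them (kb), for CTCF sites with cohesin in every list (red), other whole-limb CTCF sites (dark grey) and CTCF sites in all 3 lists without a cohesin peak (light grey); bars carry 95% Wilson intervals. Convergent pairs with cohesin range from 3.68% under 10 kb to 43.1% over 200 kb, while the grey bars of convergent pairs stay between 21.3% and 28.3%.

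Between Evx2 and Hoxd1, 4 of 9 whole-limb CTCF sites had cohesin in every list. In chromosome order their best matches read minus, minus, plus, plus, the second under the threshold. The next site on the Evx2 side was 362 kb away with a plus motif, and that on the Hoxd1 side 249 kb away with a minus motif, so that each end of the cluster faced its outer neighbour. HoxA had 5 such sites of 8, which read minus, minus, minus, plus, plus between a plus motif 321 kb away and a minus motif 295 kb away. HoxB had 5 of 12, which read minus, minus, plus, plus, plus between a plus motif 89.3 kb and a minus motif 96.2 kb away. HoxC had 2 of 4, both plus, with a minus motif 152 kb beyond, and the site on its other side was under the threshold. These 4 clusters arose by duplication of a single ancestral cluster.

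**Figure D4:**
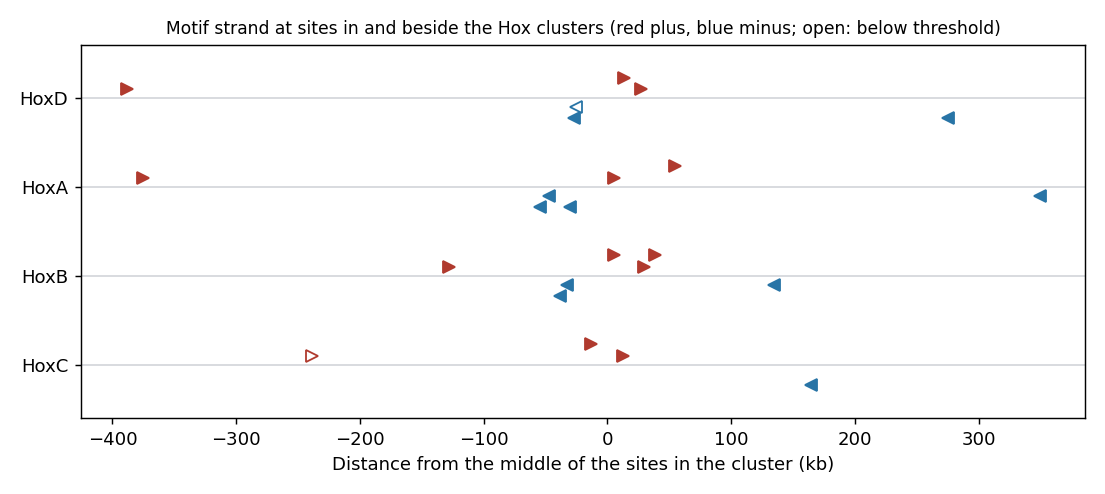
Motif strand at CTCF sites with cohesin in every list in each Hox cluster and at the next site on either side, by distance from the middle of the sites in the cluster (kb); red triangles are plus-strand motifs, blue triangles minus-strand motifs, open ones have a best match under the threshold, and height within a row only separates symbols. In HoxD, HoxA and HoxB the minus-strand motifs inside the cluster lie left of the plus-strand ones, and the outermost symbols point inwards.

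Genes of limb patterning often lay between facing sites. Of 41 such genes, 37 had a motif at both flanking sites with cohesin, and in 25 of the 37 the pair was convergent. Over all 18332 protein-coding genes with such motifs this share was 28.7%. Since genes share intervals, the count over distinct intervals was 23 of 35 for the limb genes and 2580 of 7052 (36.6%) over all. The median interval around limb genes was 397 kb, against 185 kb over all genes, and interval length goes with orientation. The single limb interval under 50 kb was not convergent, and in those of 50 to 200 kb 5 of 11 were, against 35.7% of 3604 over all. In distinct intervals of 200 to 500 kb, 8 of 9 with limb genes were convergent, against 45.1% of 1536 over all, and in those over 500 kb 10 of 14, against 48.4% of 572.

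Shh, the signal of the limb's posterior margin, lay in an 842 kb interval between the convergent sites printed above. The TSS nearest to the right-hand site was that of Lmbr1, the gene that hosts the limb enhancer of Shh. Whether that enhancer lies inside this interval was not examined. Gli3, which encodes the transcription factor that Shh signalling controls, had 1045 kb to itself, and Hand2, which acts upstream of Shh, 542 kb. Further convergent intervals held Grem1 (a BMP antagonist, 272 kb), Bmp4 (571 kb), Dlx5 with Dlx6 (595 kb), Irx3 with Irx5 (816 kb), Meis1 (873 kb), Shox2 (932 kb), Tbx5 (the forelimb T-box factor, 311 kb) and Pitx1 (a hindlimb factor, 295 kb). The 12 that were not convergent included Fgf10 (a mesenchymal growth factor, divergent, 933 kb), Ptch1 and Sall1 (tandem, 680 and 817 kb). Epha4, an ephrin receptor gene of the cartilage list, lay alone in 1590 kb between convergent sites. These genes were named after their intervals were seen.

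The other gene lists were smaller and mixed. Convergent pairs flanked 7 of 15 genes of chondrogenesis and joints, 5 of 11 of limb muscle precursors, 6 of 14 neural genes, 7 of 12 housekeeping genes, 7 of 10 imprinted genes, 1 of 10 globin and blood genes, 2 of 14 genes of the CTCF and cohesin machinery and 2 of 8 protocadherins. By cluster, the counts were 5 of 11 for HoxD and its neighbours, 4 of 12 for HoxA, 5 of 10 for HoxB and 1 of 3 for HoxC.

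Over all protein-coding genes, 21.9% (4527 of 20698) had a site with cohesin within 10 kb of a TSS. Among limb patterning genes it was 18 of 41, with the strongest sites at Gli1, Tbx2, Sp8 and Wnt7a. The Gli1 site lay 8823 bp before the TSS, in a coding exon of Inhbe. The Wnt7a site, 551 bp before the TSS of this dorsal ectoderm signal, had a CTCF −log10 q of 81.8. Among genes of chondrogenesis and joints it was 10 of 16, led by Nog (a BMP antagonist), Runx3, Sox6 and Gdf5 (a joint growth factor), with sites 901 to 2046 bp before their TSSs. None of 11 muscle precursor genes had one. Some whole-limb CTCF site, with or without cohesin, lay within that distance of 33 of the 41 limb patterning genes. It did so for 15 of the 16 genes of chondrogenesis and joints and 8 of the 11 muscle precursor genes, against 55.2% of all genes. High shares in the limb and joint lists were thus not particular to sites with cohesin.

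HoxA, HoxB and HoxC genes had a site within 10 kb in 8 of 12, 6 of 10 and 4 of 9, and HoxD genes with their neighbours in 6 of 16. Neighbouring Hox genes shared sites, so these counts rest on 5, 3, 2 and 4 sites in the same order. Imprinted genes had one in 5 of 17, led by Cdkn1c, Plagl1, Grb10 and Mest. Of 15 genes for CTCF, cohesin and its regulators, 4 had one: Pds5b within 16 bp of the TSS, Stag1 within 38 bp, Smc3 within 496 bp and Pds5a within 941 bp. Globin and blood genes had one in 3 of 10, where Hba-a1 and Hba-a2 shared a site. Housekeeping genes had one in 3 of 13, neural genes in 4 of 14, led by Neurog2, and protocadherin genes in 1 of 17, at Pcdhac1. Most of these lists are short, so their shares are imprecise.

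In the deletion limbs nearly all sites with cohesin still had a CTCF peak. In del(8-13)d11lac it was 99.6% (99.5 to 99.7), where 92.0% of all 42202 whole-limb CTCF sites had one. In del(8-13)rXII, the ChIPmentation library, it was 97.8% (97.6 to 98.1), with 70.6% over all sites. In del(1-13)d9lac it was 99.0% (98.8 to 99.2), with 80.3% over all, and in del(attP-Rel5)d9lac 99.5% (99.4 to 99.6), with 83.0% over all. All 4 lists held a peak at 96.9% (96.6 to 97.2) of sites with cohesin, with 66.3% over all sites. Other CTCF sites had shares of 88.3%, 57.5%, 71.3% and 75.1% in the 4 lists and 51.7% in all 4.

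Strength differed between these sites and the others and moved with the kept share. Set beside other CTCF sites of the same strength class, both shares were at least 98.9% in classes 8 to 10. In class 5 they were 99.2% and 99.6% in del(8-13)d11lac, 90.8% (88.5 to 92.7) and 75.1% (73.7 to 76.6) in del(8-13)rXII, 98.5% and 93.4% in del(1-13)d9lac, and 99.1% and 96.3% in del(attP-Rel5)d9lac. In class 1, with 63 sites with cohesin, they were 82.5% and 47.9%, 61.9% and 10.8%, 63.5% and 21.7%, and 76.2% and 24.9% in the same order of alleles. The weak sites with cohesin had been called in all 6 wild-type lists, which by the rule the other sites of that class had not.

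RAD21 in del(8-13)rXII limbs was called at 11955 sites with cohesin (87.4%, 86.8 to 87.9), where 34.0% of all whole-limb CTCF sites had it. It was called at 8.33% of other CTCF sites and at 27 of the 14006 without a wild-type cohesin peak. This list held 15549 autosomal peaks, against 32465 in wild-type limbs. By 10 strength classes of the wild-type limb RAD21 list, it was called at 99.97% of sites in classes 9 and 10, 84.2% in class 7, 55.5% in class 6 and 31.98% in class 5. RAD21 peaks elsewhere had 74.2%, 39.98% and 17.8% in classes 7, 6 and 5. By the rule, the sites with cohesin also had CTCF peaks and distal forelimb RAD21 and SMC1 peaks, which was not required of the peaks elsewhere. CTCF without RAD21 was found at 1623 sites in this allele and RAD21 without CTCF at 194.

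**Figure D5:**
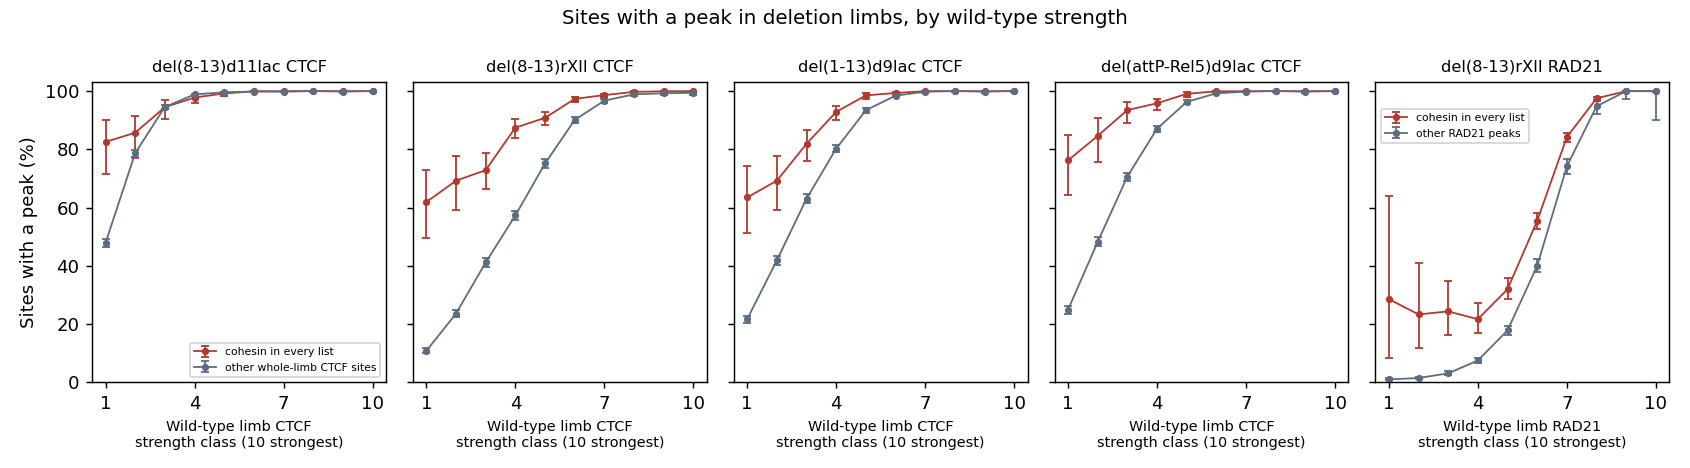
Share of sites with a peak in each deletion list by wild-type limb strength class (1 weakest, 10 strongest), with 95% Wilson intervals; red points are CTCF sites with cohesin in every list, grey points other whole-limb CTCF sites or, in the rightmost panel, other wild-type limb RAD21 peaks. The points meet in the strong classes and part in the weak ones; in del(8-13)rXII CTCF they are at 61.9% and 10.8% in class 1.

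The strongest sites that lacked RAD21 in del(8-13)rXII, outside HoxD, lay at Ccbe1, Srp9 (a subunit of the signal recognition particle), Ifnz, Tac4 and Pik3r2. Those at Ccbe1, Srp9 and Pik3r2 were within 135 bp of a TSS. The site at Srp9 had no RAD21 peak in del(8-13)rXII limbs, where its CTCF stood at the 97.7th percentile. In wild type its CTCF −log10 q was 167, while its RAD21 stood at the 56.9th percentile in whole limbs and the 29.3rd in distal forelimb. All 5 were at or under the 70th percentile for wild-type RAD21 and above the 96th for CTCF in del(8-13)rXII. The 5 were chosen as the strongest in wild-type CTCF, so their CTCF strength was set by the choice. In the SMC1 list they stood at the 45.3rd to 91.8th percentile. All sites without RAD21 in this allele had a median wild-type CTCF −log10 q of 37.1, against 48.4 at those with it.

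CTCF was missing from at least 1 deletion list at 424 sites (3.10%), and at 236 of them from del(8-13)rXII alone. The 424 were weak, with a median wild-type −log10 q of 9.90 against 48.0 for the rest, and 141 (33.3%) had no motif, against 5.67% of the rest. Among the 6246 sites with a wild-type −log10 q of at least 50, only 1, 3, 2 and 2 were missing in the 4 alleles as ordered above, and of these 1, 1, 2 and 2 lay in HoxD. The strongest of all missing sites outside HoxD lay 368565 bp from Arid1b on chromosome 17. It had a wild-type CTCF −log10 q of 214, no motif and a window 95.02% masked, was absent in the ChIPmentation list, and had 196, 138 and 218 in del(8-13)d11lac, del(1-13)d9lac and del(attP-Rel5)d9lac.

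Other named losses were weaker. In del(8-13)rXII they lay nearest to Rhag, Ano2, Tmem72 and Kat2b, with wild-type −log10 q of 39.0 to 51.6. In del(8-13)d11lac the first 5 lay near Batf3, Gng4, Kif26b, Pan3 and Gpatch1, and none had a motif. The Batf3 site, with 30.9 in wild type, was also the first in del(1-13)d9lac, followed by Synpo2, Asns, Tshz1 and Smim15. In del(attP-Rel5)d9lac 4 of the first 5 lay near Tmco5b, Exd1, Unc13c and Crygf, with 14.5 to 19.2. All of these alleles carry their change on chromosome 2 at HoxD, and 2 of the sites named here, near Tmco5b and Exd1, are on that chromosome. It held 1087 of the 13679 sites with cohesin, and a link of these losses to the HoxD change was not tested.

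Only 8 sites had no CTCF peak in any of the 4 alleles. The site between Hoxd9 and Hoxd8 had a wild-type −log10 q of 60.4 and a motif of 18.2 bits. The other 7 had 1.46 to 13.1 and no motif, and lay near Gpatch1, Defb7 (2 sites), Dnttip2, Mc3r, Cacnb4 and Vmn1r2. Those near Mc3r and Cacnb4 are on chromosome 2, and a link to the HoxD change was not tested for them either.

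The 4 HoxD sites differed between the alleles, whose deleted coordinates are not given in the sources used here. The spans in the names del(8-13) and del(1-13) hold the site between Hoxd9 and Hoxd8. The span in the name del(1-13) also holds the site at Hoxd3 and Hoxd4. Sequence absent from a homozygous allele can give no peak, so a missing peak here may be missing sequence, which was not tested. The first Evx2 site, chr2:74661629-74662138, 2446 bp from its TSS, had a CTCF −log10 q of 38.2 in del(8-13)d11lac and 9.72 in del(1-13)d9lac and no peak in the other 2 alleles or for RAD21 in del(8-13)rXII. In wild type it had 11.9 in whole limbs, 27.8 in distal and 40.3 in proximal forelimb. Its RAD21 peak had 89.7 in whole limbs, the 90.2nd percentile of that list, but 5.80 in distal forelimb, the 16.4th percentile, where SMC1 had 4.95. Cohesin at this site was therefore high in the whole-limb list and low in both distal forelimb lists, which differ in tissue and strain.

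The second Evx2 site, chr2:74663558-74663930, had 87.1, 12.9 and 39.6 for CTCF in del(8-13)d11lac, del(8-13)rXII and del(1-13)d9lac and 16.1 for RAD21 in del(8-13)rXII, and no peak in del(attP-Rel5)d9lac. In wild type it had 34.7, 139 and 159 for CTCF in whole limbs, distal and proximal forelimb, 67.6 and 22.9 for RAD21 in whole limbs and distal forelimb, and 19.8 for SMC1. It was the HoxD site kept in the most alleles.

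The Hoxd9 to Hoxd8 site, chr2:74702212-74702605, 2203 bp from the Hoxd8 TSS, had no peak in any of the 5 deletion lists. In wild type it had 60.4, 188 and 183 for CTCF in whole limbs, distal and proximal forelimb, 46.3 and 14.3 for RAD21 in whole limbs and distal forelimb, and 6.73 for SMC1. The site at Hoxd3 and Hoxd4, chr2:74715703-74716372, in a non-coding exon, had 124 and 13.0 for CTCF in del(8-13)d11lac and del(8-13)rXII and 52.5 for RAD21 in del(8-13)rXII, and no peak in del(1-13)d9lac or del(attP-Rel5)d9lac. In wild type it had 53.4, 153 and 139 for CTCF, 159 and 62.7 for RAD21 and 36.7 for SMC1, in the same order of lists. It had the highest RAD21 of the 4, at the 98.9th percentile in wild-type limbs and the 93.7th in del(8-13)rXII.

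In all, 1, 2, 2 and 4 of the 4 HoxD sites had no CTCF peak in the 4 alleles as ordered above, and 2 had no RAD21 peak in del(8-13)rXII. The flanking sites toward Lnpk and Mtx2 were kept for CTCF in all 4 and for RAD21 in del(8-13)rXII. In the other Hox clusters, the 5 sites of HoxB and the 2 of HoxC were kept for CTCF in all 4 alleles, and 4 of the 5 of HoxA were. The exception was the weak site next to Hoxa4, with 9.88 in wild type, which had no CTCF or RAD21 peak in del(8-13)rXII.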

How the data were processed

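Per the submitters' processing notes, reads passed through cutadapt, Bowtie2 and MACS2 on build mm10; versions are not given in the sources used here. The deposited lists, 1 per library, give each peak a position, a summit, a score, a fold enrichment (a ratio), and −log10 p and −log10 q. The values used here are the authors' −log10 q, which order peaks within a list and depend on depth between lists. The deposited score, fold and −log10 p columns give no value printed here.

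Rows of the same region were merged into 1 interval with its strongest summit, and autosomes were kept. GENCODE M21 gave genes, and the RefSeq genome of GRCm38 gave sequence and repeat masking. A matrix of 19 bp was found from the 2000 strongest whole-limb summits outside chromosome 18; a site has a motif if the best match within 50 bp of the summit exceeds the level that 5% of windows 2 kb away pass. The 10 strength classes divide the whole-limb CTCF list by −log10 q. Overlap and motif steps were checked on simulated data. Python 3.11.15 with numpy 2.4.6, pandas 2.3.3, SciPy 1.17.1 and pysam 0.24.0 was used.

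Sites and gene lists were chosen with earlier results of these data known. Named sites are those in HoxD, the 10 highest in every wild-type list, the 10 strongest at promoters, the 5 strongest missing from each deletion list, those missing from all 4 CTCF lists, the 5 widest gaps and densest windows, and up to 4 genes per list; predicted genes were passed over, and the genes named for their flanking intervals and the flanking sequences printed were added after seeing values. A gene named for a site is that of the nearest protein-coding TSS. Lists hold called peaks, so outside deleted sequence a missing peak is a signal under the caller's threshold and not a measured absence. Some items, among them the repeats at 6 of the 10 highest sites, are not reported here.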

Additional observations from a re-analysis of the deposited data

How the results depend on the processing

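No paired analysis was possible because each group has 1 library. Of 71 planned recalculations, 46 stayed within the 95% interval of the reported value (for counts, within 1.5 times), 25 moved and none reversed. Where every list was held to a −log10 q of 10 or more, 7902 sites were chosen. Of these, 74.1% kept CTCF in del(8-13)rXII, 98.1% kept it in del(1-13)d9lac and 73.4% in all 4, 6.15% lay at promoters, the median spacing was 143300 bp, and 2 HoxD sites were chosen, of which 0, 0, 1, 2 and, for RAD21, 0 had no peak in the order of alleles used above. With 50% of the interval covered, the kept shares were 93.6% in del(8-13)rXII and 92.8% in all 4, the spacing was 95510 bp, and 3 HoxD sites were missing in del(1-13)d9lac. With summits within 200 bp they were 97.3% and 96.3%. With deletion lists of equal length the shares were 97.98% in del(8-13)d11lac, then 98.3% in del(1-13)d9lac, 98.8% in del(attP-Rel5)d9lac and 95.4% in all 4, and without the ChIPmentation library 98.6% in the other 3. Within 5 kb of a TSS lay 19.8%. A motif window of 100 bp gave a motif share of 93.03%, and a threshold passed by 1% of control windows 85.4%. Leaving out a required list gave 13682 to 17517 sites. In strength classes 1 to 5, an alternative chosen after seeing the data, 5% of pairs under 10 kb and 28.9% of those over 200 kb were convergent. The cause of these moves was not tested. Cohesin summit offsets moved by at most 1 bp. The depth of the libraries is unknown, so weak sites missing from a list were not detectable there, which is not absence of binding.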
